A study of Rattus norvegicus with 18 samples.

Results

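Potassium channel genes were followed across the hypothalamus of 18 male Wistar rats, with 1 single-colour array per rat. A gene belonged to the set if its rat symbol began with Kcn followed by letters and a number, except that 3 genes of that form (Kcnj8, Kcnj13 and Kcne2) were left out by name. The rule gave 87 genes, read by 124 probes, of 16665 named genes on the array, and the choice used no measured value. Of the 87 genes, 78 were tested, since in 1 group or more their signal was called well above background on 5 or 6 of its arrays. Kcna10, Kcne1, Kcne3, Kcne4, Kcnj15, Kcnk15, Kcnk18, Kcnmb1 and Kcnmb3 did not reach that level, and 13051 named genes were tested in all. The rats with stress and exercise (n = 6) were restrained for 1 to 1.5 h a day, 5 days a week, over 3 weeks, and had a running wheel for 4 weeks that began 1 week before the restraint. The stress rats (n = 6) had the same restraint and no wheel, and the control rats (n = 6) had neither. All rats were 9 weeks old by their sample labels. The series title places the study in stress-induced hypertension and its prevention by exercise.

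Potassium channels let potassium leave or enter the cell along its gradient, which sets the resting potential and ends the action potential. Voltage-gated pores (Kcna, Kcnb, Kcnc, Kcnd, Kcnq, Kcnh) open on depolarisation, and silent subunits (Kcnf, Kcng, Kcns, Kcnv) form no channel alone but change the pores they join. Inward rectifiers (Kcnj) include channels opened by G proteins and by a fall in ATP, K2P channels (Kcnk) carry leak currents, and other families open with intracellular calcium or sodium. In hypothalamic neurons these currents set firing patterns, and the ATP-sensitive channels couple firing to energy supply.

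Levels below are log2 intensities relative to each array's 75th percentile, so a level of 0 equals that percentile. They compare the same probe between rats and not one gene with another. The array scan headers place the rats on 5 slides, and the layout bears on every comparison. Slides 1 to 3 held the 6 control rats and stress rats 1 to 4 (10 rats), and slides 4 and 5 held stress rats 5 and 6 and all 6 rats with stress and exercise (8 rats). No slide held control and stress rats together, so slide and group cannot be told apart between them. By the same headers, slides 2 and 4 were scanned on 1 day and slides 1, 3 and 5 on a later day. To describe the tissue, 11 markers of hypothalamic neurons were read, of which 10 were tested and Otp was not. Their mean level per rat was 2.30 to 2.63 in rats with stress and exercise, 2.28 to 2.68 in stress rats and 2.10 to 2.49 in control rats. With no other tissue on these arrays, such levels cannot test the hypothalamic label.

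Of the 78 genes, 27 had a mean above the 75th percentile in all 3 groups. These included the voltage-gated Kcna1, Kcna2, Kcna6, Kcnc1, Kcnc2, Kcnd2, Kcnd3, Kcnh1, Kcnh2 and Kcnq3, the inward rectifiers Kcnj3, Kcnj11, Kcnj12, Kcnj14 and Kcnj16, and the leak channels Kcnk1, Kcnk2, Kcnk12 and Kcnk13. A probe's brightness depends on the probe as well as the transcript, so the count describes the readings and ranks no gene.

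Rats with stress and exercise differed from control rats in 13 potassium channel genes, 10 higher and 3 lower. The 13 are 16.7% of the 78 genes, against 27.8% of all 13051 tested genes, 18% called higher and 9.82% called lower. The share in the set was thus not above the background. Between the tested genes' groups, 7 of the 78 (8.97%) did not overlap, against 18.7% of all tested genes. The median difference of the 78 genes was 0.10, against 0.05 over all tested genes. With no scaling of the arrays, 5 members passed, 2 higher and 3 lower (Kcna3, Kcnt1, Kcnh2, Kcnma1 and Kcnv2). That is 6.41% of the 78 genes, against 12.9% of all tested genes, and the share of called genes that were higher was 24.0% in all, against 64.7% with the scaling used. Each of the 13 genes kept its sign without scaling. In bulk tissue, fewer cells of a type and less RNA per cell cannot be told apart.

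**Figure D1:**
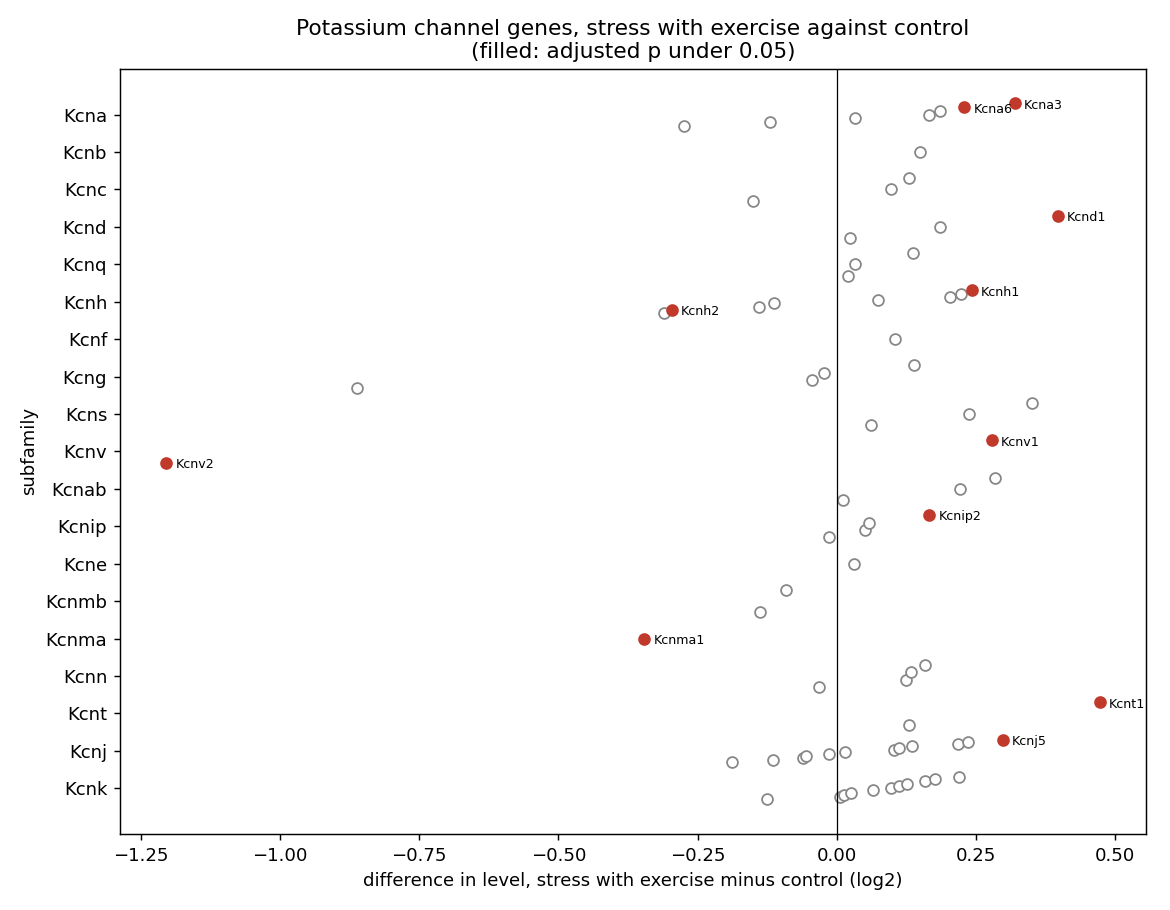
Difference in level (log2) between rats with stress and exercise and control rats for 75 of the tested potassium channel genes, 1 point per gene, by subfamily, with filled points for an adjusted p under 0.05. Of the 11 filled points, 8 lie right of 0, and Kcnv2 lies furthest to the left at -1.20.

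Of the 28 tested voltage-gated pores, 7 were among the 13 genes, 6 higher and 1 lower. Over all tested genes 27.8% passed, 18% higher and 9.82% lower. Kcnd1, a pore of the fast transient A-type current, had levels of -1.49 to -1.10 with a median of -1.35 in rats with stress and exercise, -1.64 to -1.11 (median -1.49) in stress rats and -2.02 to -1.53 (median -1.61) in control rats. Every rat with stress and exercise lay above every control rat, and the difference was 0.40 ± 0.10 (SE, limma, adjusted p = 0.00793). Kcna6, a Shaker-type pore, had no overlap between these groups either, with 2.62 to 2.85 in rats with stress and exercise and 2.40 to 2.56 in control rats, a difference of 0.23 ± 0.05 (SE, limma, adjusted p = 0.00441).

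Kcna3, another Shaker-type pore, differed by 0.32 (adjusted p = 0.0274) and Kcnh1, of the ether-a-go-go family, by 0.24 (adjusted p = 0.015), and in both the groups overlapped. Kcnq3, a pore of the M-current that damps repeated firing, differed by 0.02 and did not pass. Kcnh2, which carries a current that shapes the late action potential, was the member that fell among the pores. Its levels were 1.15 to 1.31 in rats with stress and exercise (median 1.19), 1.10 to 1.61 in stress rats (median 1.38) and 1.42 to 1.54 in control rats (median 1.52). Rats with stress and exercise and control rats did not overlap, and the difference was -0.30 ± 0.07 (SE, limma, adjusted p = 0.00465). Kcna1, Kcna2, Kcnc1 and Kcnd2 differed by 0.19, 0.03, 0.10 and 0.19 and did not pass, although the second tested probe of Kcnc1 did, at 0.17 (adjusted p = 0.0479).

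The silent subunit Kcnv2 moved most of all members. Its levels were -3.23 to -2.54 (median -3.01) in rats with stress and exercise, -2.68 to -1.63 (median -1.92) in stress rats and -2.11 to -1.53 (median -1.77) in control rats. All 6 rats with stress and exercise lay below all 6 control rats, and stress rats 5 and 6, on slide 4, were at -2.68 and -2.48 while stress rats 1 to 4 lay between -1.95 and -1.63. The difference from control was -1.20 ± 0.16 (SE, limma, adjusted p = 0.000576). Kcnv2 is known mainly from photoreceptors. Its relative Kcnv1 was higher, by 0.28 (adjusted p = 0.0146). On slide 4, the only slide with 2 groups, rats 1 and 2 of stress and exercise had -3.05 and -3.23, against -2.68 and -2.48 in stress rats 5 and 6.

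Kcnt1, the sodium-activated pore, had levels of 0.28 to 0.62 (median 0.39) in rats with stress and exercise, -0.05 to 0.54 (median 0.12) in stress rats and -0.16 to 0.16 (median -0.11) in control rats. It was higher than in control by 0.47 ± 0.09 (SE, limma, adjusted p = 0.00189), with no overlap. Kcnma1, the pore of the large-conductance calcium-activated channel, fell by 0.35 on the log2 scale (adjusted p = 0.0263) on its brighter probe, and its second tested probe gave 0.14 with no call. The small-conductance pores Kcnn1, Kcnn2 and Kcnn3 differed by 0.16, -0.03 and 0.13 and did not pass.

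Kcnj5, a G-protein-gated inward rectifier, had levels of -0.95 to -0.67 in rats with stress and exercise, -1.33 to -0.66 in stress rats and -1.20 to -0.99 in control rats. The difference from control was 0.30 ± 0.09 (SE, limma, adjusted p = 0.0248). Its partners did not pass: Kcnj3 differed by -0.19, Kcnj6 by -0.06 and Kcnj9 by 0.14. The glial rectifiers Kcnj10 and Kcnj16 differed by 0.02 and 0.10. Kcnj11, the pore of the ATP-sensitive channel, differed by 0.24 and did not pass (adjusted p = 0.079). None of the 11 tested K2P genes passed on its brightest probe, against 27.8% of all tested genes. An unadjusted p under 0.05 (limma) was found in 0 of the 11 and in 12002 of all 31293 tested probes. The second probe of Kcnk6 passed, at -0.56 (limma, adjusted p = 0.00887), while its brightest probe gave 0.18, so the probes disagreed in sign. The leak channels Kcnk1, Kcnk2, Kcnk3 and Kcnk9 differed by -0.12, 0.01, 0.22 and 0.16. Among accessory subunits, Kcnip2, a calcium-binding partner of A-type pores, was higher by 0.17 (adjusted p = 0.0113) on its brighter probe, with 0.13 and no call on the second, while Kcnab1 and Kcnmb4 differed by 0.01 and -0.14 and did not pass.

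**Figure D2:**
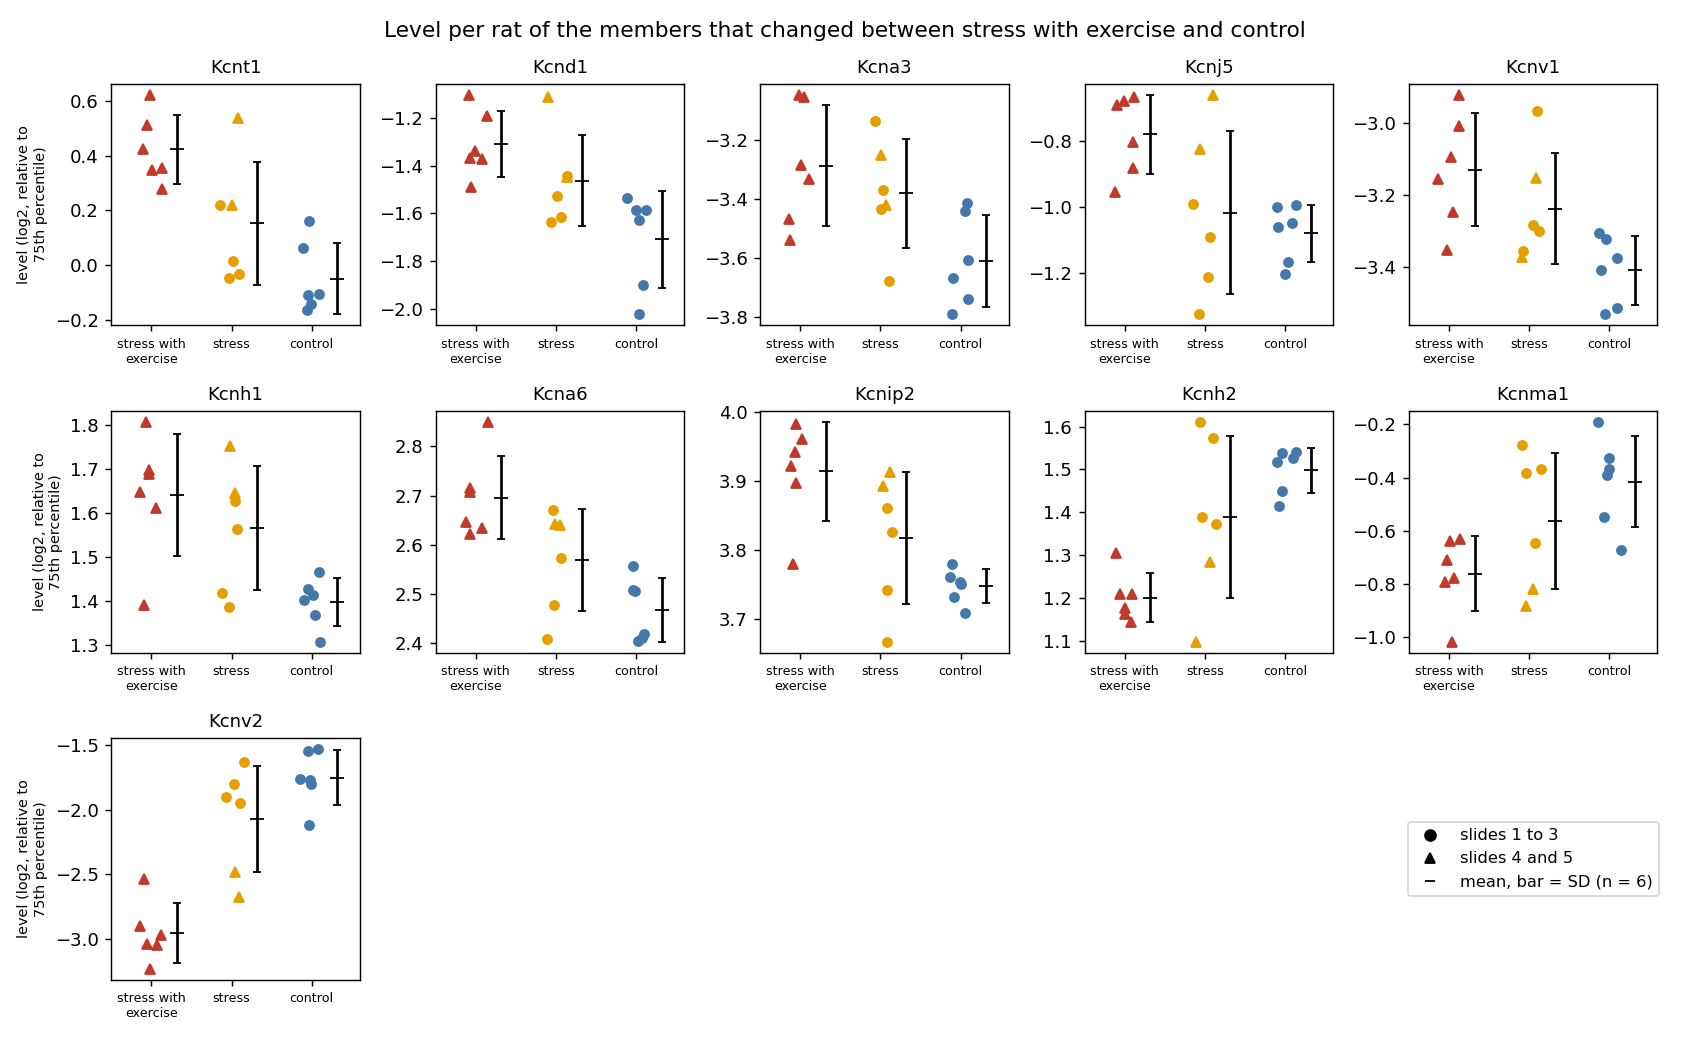
Level per rat (log2 relative to the array's 75th percentile) of 11 genes that passed between rats with stress and exercise and control rats, with group mean and SD (n = 6 each) and with circles for slides 1 to 3 and triangles for slides 4 and 5. In Kcnh2, Kcnj5 and Kcnma1 the 2 stress rats marked by triangles lie with the rats with stress and exercise. In Kcnv2 stress rat 5 (-2.68) lies within the range of those rats and stress rat 6 (-2.48) above it.

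The slide layout was measured beside these differences. In stress rats alone, rats 5 and 6 differed from rats 1 to 4 in 8 of the 78 members, 5 higher and 3 lower. That is 10.3% of the 78, against 16.8% of all tested genes. Rats 5 and 6 differ from rats 1 to 4 in slide, scan day and animal, which cannot be told apart. Of the 13 genes, 5 were among the 8, in the same direction, Kcnh2, Kcnj5, Kcnma1 and Kcnv2 among them. That is 38.5% of the 13 and 62.5% of the 8, and the 2 contrasts share no array. The matching overlap over all tested genes was not counted, so these shares cannot be called particular to the members. The others of the 8 were Kcnab2 (0.60), Kcns1 (0.73) and Kcnj11 (0.37), all higher on slide 4. With the slide set as a covariate, 0 of the 78 members passed between rats with stress and exercise and control rats, against 0.00766% of all tested genes. An unadjusted p under 0.05 (limma) was found in 5 of the 78 members and in 2885 of all 31293 tested probes. In that fit the difference for Kcnv2 was -0.44, for Kcnh2 -0.0013, for Kcnj5 -0.11 and for Kcnma1 0.09, while Kcna3 and Kcnv1 had 0.25 and 0.31. That fit sets control against stress rats within slides 1 to 3 and stress against exercise within slides 4 and 5. It has 2 stress rats on slides 4 and 5, and its SE is wider.

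**Figure D3:**
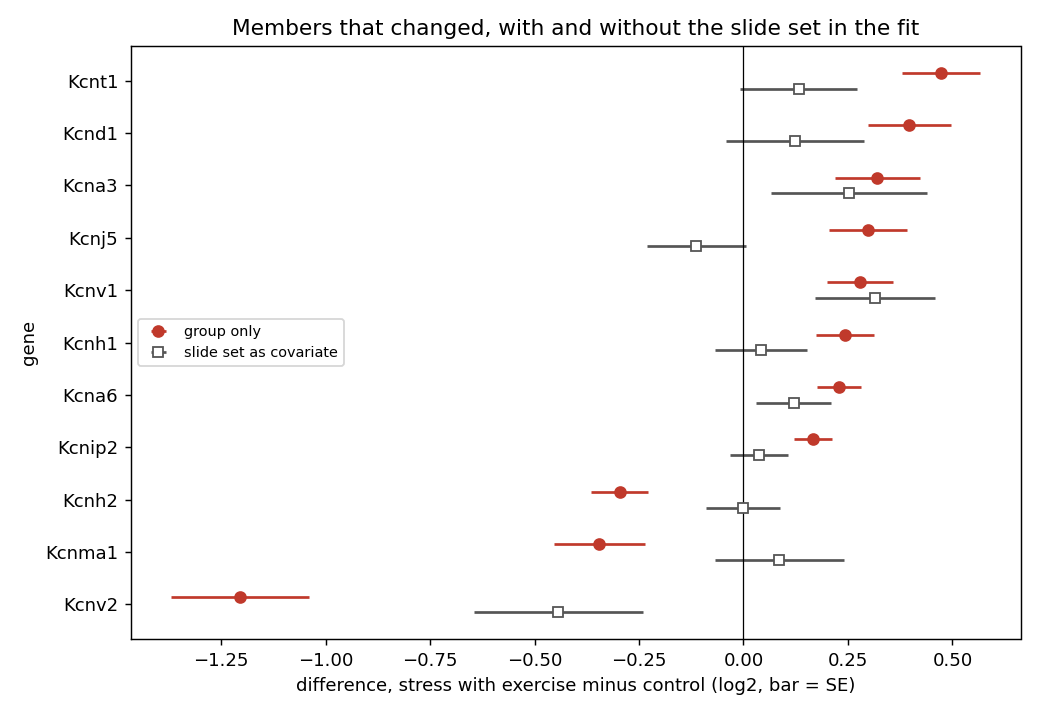
Difference between rats with stress and exercise and control rats (log2, bar = SE) for 11 of the genes that passed, without the slide set in the fit (filled) and with it (open). The open points lie nearer 0 for 10 of the 11 genes, with Kcnv1 as the exception at 0.31.

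Rats with stress and exercise differed from stress rats in 1 member, Kcnv2, which was lower by 0.88 on the log2 scale (SE 0.16, limma, adjusted p = 0.0367), against 3.26% of all tested genes. With the slide set as a covariate the difference was -0.38 and did not pass (adjusted p = 0.722). Without stress rats 5 and 6, 16 members (20.5%) passed, 13 higher and 3 lower, against 26.7% of all tested genes. Kcnv2 then differed by -1.14. The stress rats left were all on slide 3, and the rats with stress and exercise on slides 4 and 5. In that comparison group and slide cannot be told apart. The further genes that passed then included Kcnab2 (0.53), Kcnd2 (0.38), Kcnk4 (0.43) and Kcns1 (0.52). Leaving out stress rat 5 alone gave 8 members and leaving out stress rat 6 gave 5, whereas leaving out any of stress rats 1 to 4, control rat 6 or any rat with stress and exercise gave 0.

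Stress rats did not differ from control rats in any of the 78 members (0% of all tested genes). An unadjusted p under 0.05 (limma) was found in 7 of the 78 members and in 3746 of all 31293 tested probes. The members with the smallest p were Kcnj3 (-0.33 ± 0.13 SE, limma, adjusted p = 0.368), Kcnd1 (0.25 ± 0.10) and Kcnh1 (0.17 ± 0.07). Kcna3, Kcnv1, Kcnt1 and Kcna6 lay above control by 0.23, 0.17, 0.20 and 0.10, and Kcnk4, Kcng3, Kcnv2 and Kcnc2 below it, by -0.26, -0.85, -0.32 and -0.32. The value for Kcng3 rested on control rat 2, without which it was -0.36.

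Rat-to-rat variation in another group of members followed thalamic markers. The thalamus borders the hypothalamus, and 7 of 10 thalamic markers were tested, with Tcf7l2, Rora and Synpo2 among those that were not. Their mean per rat ran from -0.67 to 0.31 in rats with stress and exercise, -1.17 to -0.15 in stress rats and -0.92 to 0.22 in control rats, so the groups overlapped. Kcnc2, a pore of fast-spiking neurons, had levels of 2.05 to 2.94 in rats with stress and exercise, 1.81 to 2.64 in stress rats and 2.04 to 3.15 in control rats. Its level was highest in control rat 1, which had the highest thalamic mean among control rats, and lowest in stress rat 2, which had the lowest of all. Within slides 1 to 3 the correlation of Kcnc2 with the thalamic mean was r = 0.99 (rho = 0.90, n = 10, permutation p = 2e-05) and within slides 4 and 5 it was r = 0.96 (rho = 0.98, n = 8, exact permutation p = 0.000198). Without the 2 rats farthest from the median of the thalamic mean, r was 0.98 and 0.93. These 2 are among 312 correlations of members with the thalamic and striatal means, and the Benjamini-Hochberg adjusted p was 0.00312 and 0.0106.

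In a fit over all genes with group, slide set and both regional means, chosen after the data were seen, 14 of the 78 members (17.9%) had a slope on the thalamic mean, all positive, against 3.43% of all tested genes. Kcnc2 changed by 0.87 ± 0.04 (SE) per unit of the thalamic mean, Kcnj3, a G-protein-gated rectifier, by 0.52 ± 0.07, and Kcnj12, a strong inward rectifier, by 0.47 ± 0.04. Kcnmb4, the neuronal beta subunit of the large-conductance channel, had 0.47 ± 0.05, and Kcnk1, a leak channel, 0.34 ± 0.04. The other 9, with slopes of 0.46 to 0.19, included Kcnj9, Kcnab1, Kcnq3, Kcnip4, Kcna4, Kcna1, Kcnk12 and Kcnk13. Within slides 1 to 3 the correlations of the 14 with the thalamic mean were 0.73 to 0.99, and within slides 4 and 5 they were 0.52 to 0.96. These 14 were chosen by a slope over the same rats, so the ranges describe them and test nothing. Without the 2 rats farthest from the median of the thalamic mean, the lowest r was 0.50 within slides 1 to 3 and 0.066 within slides 4 and 5. In 5 of the 14 (Kcna4, Kcnc2, Kcnj9, Kcnk12 and Kcnmb4) the adjusted p of r was under 0.05 in both slide sets, and in 2 of these (Kcnc2 and Kcnk12) that of rho was too. None of the 14 was among the 13 genes that passed between rats with stress and exercise and control rats. The part of the dissected region in these levels was not tested.

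**Figure D4:**
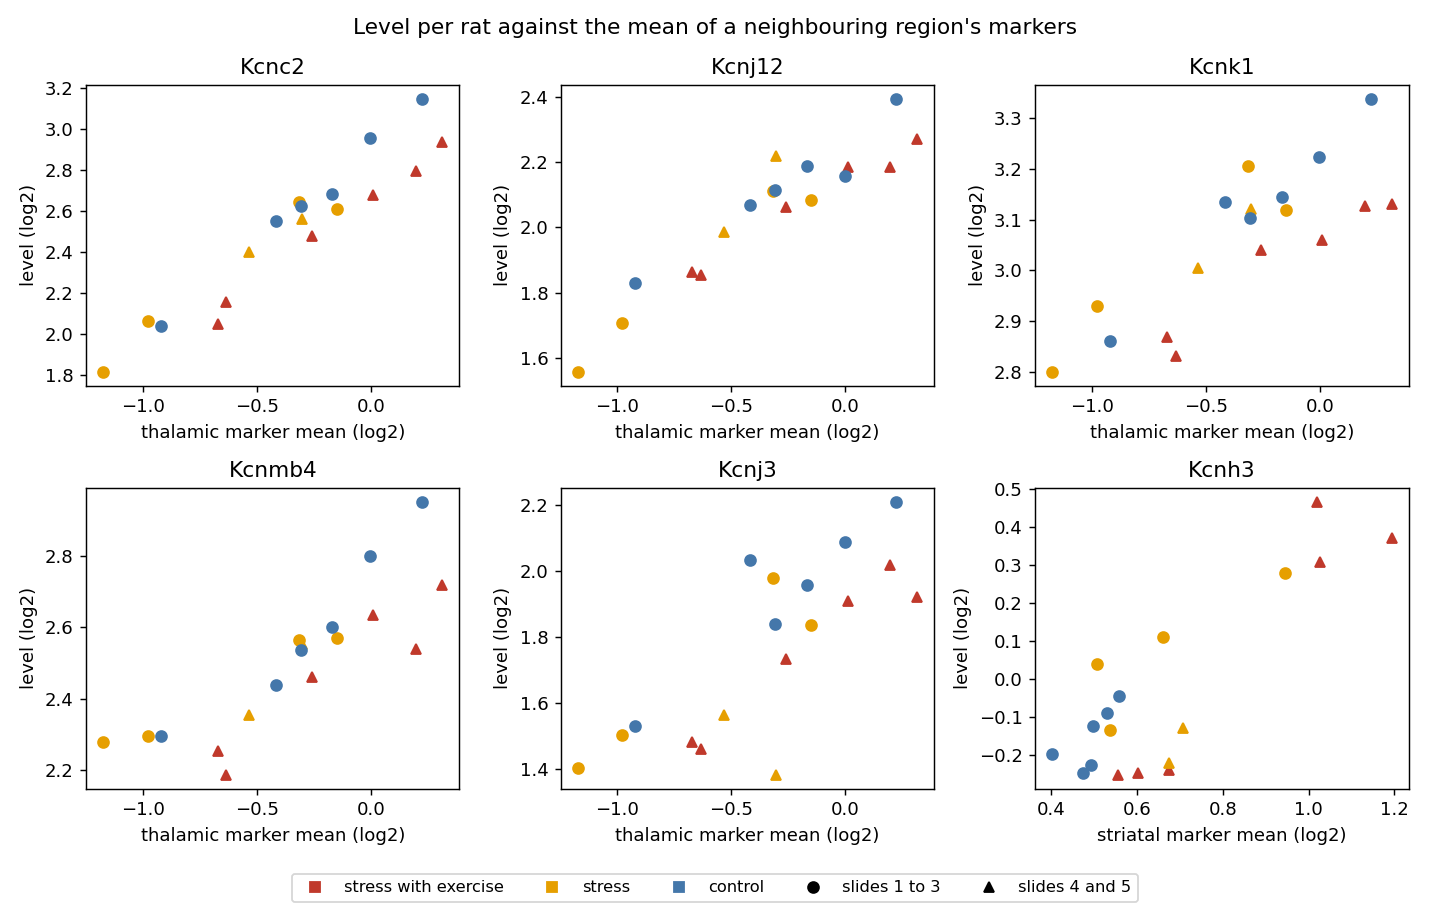
Level per rat (log2) of the 5 genes with the smallest p for a slope on the thalamic marker mean, and of Kcnh3 against the striatal marker mean, coloured by group, with circles for slides 1 to 3 and triangles for slides 4 and 5. Kcnc2 lies near a line from 1.81 to 3.15, and Kcnh3 reaches 0.47.

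Kcnh3, an ether-a-go-go pore of forebrain neurons, followed the striatal mean instead, with a slope of 1.12 ± 0.14 (SE, limma, adjusted p = 0.00614). It was the only member of 78 with such a slope, against 0.138% of all tested genes. Its correlation with the striatal mean was 0.89 within slides 1 to 3 and 0.95 within slides 4 and 5. The Benjamini-Hochberg adjusted permutation p was 0.0247 and 0.0616, and that of rho was 0.077 in both. Without the 2 rats farthest from the median of the striatal mean, r was 0.54 and 0.97. The striatal mean (8 of 9 markers tested) was 0.55 to 1.19 in rats with stress and exercise, 0.51 to 0.95 in stress rats and 0.40 to 0.56 in control rats, and 4 of its 8 tested genes (Adora2a, Ppp1r1b, Rgs9 and Pde10a) were higher in rats with stress and exercise than in control rats. Oligodendrocyte markers had means of 5.30 to 5.45 in rats with stress and exercise, 5.12 to 5.33 in stress rats and 5.05 to 5.22 in control rats, with 3 of 6 higher (Mog, Mag and Cnp). Precursor markers rose in 3 of 4 (Cspg4, Olig1 and Olig2). Astrocyte markers had 1 higher and 1 lower of 6, microglial markers 1 higher and 2 lower of 6, and endothelial markers 0 of 5. General neuronal markers had 1 higher and 0 lower of 6. Their means were 3.49 to 3.62 in rats with stress and exercise, 3.33 to 3.59 in stress rats and 3.37 to 3.59 in control rats. Mural cell markers had 1 higher and 1 lower of 5, and choroid plexus markers 0 higher and 1 lower of 5. Over all tested genes 18% were higher and 9.82% lower. With the slide set as a covariate, 0 genes of these marker lists passed. In that fit Mog, Mag and Cnp differed by 0.02, 0.09 and 0.07, and Cspg4, Olig1 and Olig2 by 0.04, -0.0044 and 0.14. Adora2a, Ppp1r1b, Rgs9 and Pde10a differed by 0.62, 0.49, 0.24 and 0.29. The part of these marker differences in the potassium channel results was not tested. With both regional means in the fit and no slide set, 5 members passed between rats with stress and exercise and control rats, which is 6.41% of the 78, against 9.34% of all tested genes. These included Kcnt1 (0.50), Kcnv2 (-1.33), Kcnc2 (-0.26) and Kcnk1 (-0.16).

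Partners of the channels were read from lists. Of 26 tested partners, 6 were higher and 3 lower in rats with stress and exercise than in control rats, with a median difference of 0.10. Over all tested genes 18% were higher and 9.82% lower, so the partners' counts lay near the background, as did those of the gradient genes below. Adam11 differed by 0.52, and Dlg4, an anchoring protein of Shaker-type pores, by 0.21. All 4 HCN channels, whose pacemaker current opposes the potassium currents at rest, were tested, and 3 were higher, among them Hcn2 by 0.45 and Hcn3 by 0.30. Of 11 tested genes that build the potassium gradient, 3 were higher, among them Slc12a4 by 0.27. Between rats with stress and exercise and stress rats, 1 of the 41 tested genes of these lists passed, against 3.26% of all tested genes. It was Abcc9, a regulatory subunit of the ATP-sensitive channel, at 0.34 (limma, adjusted p = 0.0393). In the fit with the slide set, Abcc9 differed by 0.27 in this comparison and did not pass (limma, adjusted p = 0.713). With the slide set as a covariate, 0 of the 41 genes of the 3 lists passed between rats with stress and exercise and control rats (limma, 1 at an unadjusted p under 0.05).

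Promoters are shown for Kcnc2 and Kcnmb4, the members with the smallest p for a thalamic slope that have a promoter entry, and for Kcnv2, which moved most between groups. RefSeq sequences of assembly GRCr8 cover 250 bases before to 50 after the start, and 60 of the 87 genes matched. Capitals mark CTTTGA (the core bound by TCF and LEF factors), GGGCGG (a GC box), TGACG (the core of a cAMP response element) or CACGTG (an E-box), on either strand. No 2 of these motifs overlap in the windows shown.
Kcnc2 (chr7:49587364-49587663, + strand): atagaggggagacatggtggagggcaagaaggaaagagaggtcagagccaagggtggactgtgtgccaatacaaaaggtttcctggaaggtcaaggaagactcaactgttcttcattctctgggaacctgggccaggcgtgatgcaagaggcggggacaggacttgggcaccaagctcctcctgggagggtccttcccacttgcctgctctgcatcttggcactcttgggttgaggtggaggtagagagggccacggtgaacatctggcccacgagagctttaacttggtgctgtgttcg
Kcnmb4 (chr7:54005052-54005351, - strand): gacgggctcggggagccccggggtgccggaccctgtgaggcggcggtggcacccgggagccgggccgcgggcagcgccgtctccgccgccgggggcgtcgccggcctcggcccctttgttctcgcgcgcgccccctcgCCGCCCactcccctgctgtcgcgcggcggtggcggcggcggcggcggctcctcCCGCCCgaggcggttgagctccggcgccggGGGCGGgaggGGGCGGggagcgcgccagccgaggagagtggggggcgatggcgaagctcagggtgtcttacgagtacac
Kcnv2 (chr1:234412924-234413223, + strand): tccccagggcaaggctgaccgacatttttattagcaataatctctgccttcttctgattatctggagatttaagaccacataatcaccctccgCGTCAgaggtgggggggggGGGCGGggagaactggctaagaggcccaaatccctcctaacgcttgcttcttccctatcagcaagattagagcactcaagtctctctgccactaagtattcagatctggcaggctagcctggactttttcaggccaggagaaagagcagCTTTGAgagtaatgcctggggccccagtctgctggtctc
The Kcnc2 window held none of the 4 motifs, the Kcnmb4 window held the GC box 4 times, and the Kcnv2 window held the TCF and LEF core, the GC box and the cAMP response element core once each. The TCF and LEF core was in 16.7% of the 60 potassium channel promoters and in 15.9% of all 27457 promoters. The GC box was in 50% of the potassium channel promoters and in 34.9% of all promoters. The median share of G and C bases was 61.33% in the potassium channel promoters and 52.33% in all, and the GC box counts were not adjusted for it. The cAMP response element core was in 20% of the potassium channel promoters, against 22% of all, and the E-box in 5%, against 6.65% of all. Of 6 promoters of members with a thalamic slope, 0 held the TCF and LEF core, 1 the GC box, 1 the cAMP response element core and 0 the E-box.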

How the data were processed

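The deposited intensity of each array spot is the processed signal, background-subtracted and detrended within the array, per the file headers, which name Agilent Feature Extraction 12.1.0.3, while the submitters' processing notes name 9.1. The quality flags are those of the same deposited files. Per array, 62976 spots were read and 63.6% to 77.7% of probes were well above background. The authors' matrix held the same intensity times a constant per array. Each array's log2 processed signals were centred on their 75th percentile. Outlier and control spots were left out, spots of a probe were averaged, and 306 values lost to outliers were filled with the row median. Probes were named by transcript accession in RefSeq's table of GRCr8 (21220 of 45598 probes), and each gene was read by its brightest tested probe. The comparisons used limma 3.58.1 in R 4.3.3 with a single term for group over the 18 arrays, two-sided, with Benjamini-Hochberg adjustment over 31293 probes at 0.05. The fit was tested on simulated data drawn independently for each probe and array. Those data held no slide or scan day effect, so the simulation says nothing about the slide layout. The mean-signal column was not in the files used here, so normexp (offset 50) was run on median signals. Named genes were every member that passed (or, where none did, the 6 per direction with the smallest p) and a fixed list of well-known members. Some genes are counted but not reported here by name, and not every gene of that list is printed for every comparison. Members, lists and the split of slides were chosen with earlier results of these data known. Alternatives covered scaling, background, filters, slide, scan day, samples, replicate number and regional means.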

Additional observations from a re-analysis of the deposited data

Results flagged for a closer look

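In 3 of 102 groups of 6 rats, taken from the genes named, 1 rat stood apart from the other 5 by Dixon's test at its 95% critical value, while chance alone sets about 1 group in 20 apart. Kcnd1, a pore of the A-type current, had -1.11 in stress rat 5, against -1.64 to -1.44 in the other stress rats. Kcng3, a silent subunit, had -1.64 in control rat 2, against -5.05 to -4.17 in the other control rats. Kcnj10, a glial rectifier, had -4.40 in rat 1 with stress and exercise, against -3.85 to -3.56 in the others of that group.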

How the results depend on the processing

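Between stress rats and control rats, 0 members passed under every alternative run. Between rats with stress and exercise and stress rats, the count of 1 became 2 with quantile normalization and with normexp. It was also 2 with scan day as a block. Without stress rats 5 and 6, where group and slide set coincide, it was 16. It became 0 with no filter on dim probes, with only the groups compared, with the slide set as covariate, alone or with scan day, within 1 slide set, with slide as a random block, with the replicate block and with the regional means as covariates. Leaving out 1 rat gave 0 to 8. Between rats with stress and exercise and control rats, the count of 13 became 5 with no scaling, 5 with the regional means, 1 with slide as a random block, 20 with scan day as a block and 0 with the slide set as covariate, alone or with scan day. Leaving out 1 rat gave 11 to 14. The replicate block gave 13. Deviations from the group means in same-numbered rats of different groups had r from -0.25 to 0.18 over 18 pairs, with 4 over 0.1. Rats were not treated as paired, and whether the numbers pair them cannot be told from these values. The slide contrast within stress rats gave 4 instead of 8 members with no scaling and 5 with no filter. The thalamic slope gave 9 instead of 14 members with no scaling and 12 to 15 without 1 rat. Signs of the difference from control turned in Kcnj5 (-0.11) and Kcnma1 (0.086) with the slide set and in Kcnip2 (-0.0076), Kcnh1 (-0.037) and Kcnj5 (-0.12) with slide set and scan day; the cause was not tested. Signal over background limits Kcng3, Kcnh5, Kcnh8, Kcnj1, Kcnj2, Kcnq5 and Kcns2, which were not well above it on every array.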
